A study of Homo with 2 samples.

Results

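Landmark genes of hypoblast and endoderm, namely GATA6, GATA4, SOX17, CER1, CYP26A1 and NID2, were followed in day 4 human blastoids, with the question whether any single cell carried several of them. The 6 genes are among 28363 genes in the deposited tables and were found by symbol in both libraries. Blastoids are embryo-like aggregates of stem cells, here of the established embryonic stem cell line KhES1. There was 1 group with 2 libraries (libraries 1 and 2): KhES1 cells were aggregated in microwells for a day and then held in a hydrogel for 4 days, in high-glucose DMEM that contained 10% FBS (fetal bovine serum) and Y27632, an inhibitor of ROCK kinases, at 10 µM. No other line, genotype or condition is analysed here, and the labels do not say whether the libraries came from separate cultures, so differences between them may be technical. Single-cell RNA was counted as unique molecular identifiers (UMIs) with droplet chemistry that reads the 3' end of transcripts. The description covers barcodes in which 1000 or more genes were detected and no more than 20% of UMIs were mitochondrial, 937 of 1988 in library 1 and 1519 of 2601 in library 2, or 2456 of 4589 in all.

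The hypoblast is the epithelium that lines the cavity side of the embryo's inner cells and later forms the yolk sac lining. Definitive endoderm arises later, from epiblast cells that pass through the primitive streak, and gives rise to the gut. GATA6, GATA4 and SOX17 are transcription factors of both. CER1 is a secreted antagonist of NODAL, BMP and WNT ligands, CYP26A1 an enzyme that breaks down retinoic acid, and NID2 (nidogen-2) a protein that links laminin and collagen IV in basement membranes. None of the 6 is limited to endoderm: GATA6 and GATA4 are also expressed in heart-forming mesoderm, SOX17 also acts in human primordial germ cells, and CER1 and CYP26A1 are also known from the gastrulating embryo. In RefSeq on GRCh38, GATA6 lies on chromosome 18 (22169589 to 22202528), GATA4 on chromosome 8 (11676935 to 11760002), SOX17 on chromosome 8 (54457935 to 54460892), CER1 on chromosome 9 (14717326 to 14722733), CYP26A1 on chromosome 10 (93073475 to 93077885) and NID2 on chromosome 14 (52004809 to 52069059).

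The libraries held 38665475 and 45208758 UMIs in all, and the median barcode described held 35059 UMIs in library 1 and 25116 in library 2. No barcode sequence among those described was shared by the libraries. Clusters were built without the 6 genes. A trophectoderm/amnion-like class, with all 14 trophectoderm and amnion markers at 10 or more CPM (a gene's UMIs per 1000000 UMIs), held 720 cells of library 1 and 918 of library 2. One cluster of 48 and 83 cells had the highest level of POU5F1, a pluripotency factor. It is called the POU5F1-high cluster and given no cell type, because its streak markers scored slightly above its pluripotency markers. It split into a sub-cluster highest in TBXT, a streak factor (13 and 20 cells), one highest in GATA3, a factor of trophectoderm and amnion (20 and 19), and one highest in SOX2, a pluripotency factor (15 and 44). The data give no cluster that the label endoderm would fit. The 11 endoderm markers, which include FOXA2, HNF4A, TTR and APOB, summed to 14.5 CPM in both libraries in the TBXT sub-cluster, 12.5 and 9.78 CPM in the GATA3 sub-cluster, 20.01 and 13.1 CPM in the SOX2 sub-cluster, and 4.30 and 4.22 CPM in trophectoderm/amnion-like cells. FOXA2 was not among the genes counted in library 1, so the library 1 sums lack it. HNF4A and TTR had 0 UMIs in all 3 sub-clusters in both libraries. APOA2, 1 of the 11, was a leading gene of another cluster of 26 and 60 cells with the placental genes PGF and S100P, in which GATA4, SOX17 and CER1 had 0 UMIs in both libraries. The remaining barcodes lay mostly in unnamed clusters of under 1/3 of the usual depth.

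Over all barcodes described, GATA6 and NID2 were the well-counted members, and SOX17 was found in the fewest barcodes. GATA6 stood at 29.8 CPM in library 1 and 28.8 in library 2, with a UMI in 364 and 506 barcodes. NID2 stood at 32.99 and 29.96 CPM, in 478 and 569 barcodes. GATA4 was at 2.38 and 2.37 CPM, in 32 and 36 barcodes. These 3 genes differed little between the libraries. SOX17 was at 0.881 and 1.25 CPM and was found in only 2 barcodes of library 1 and 9 of library 2. CYP26A1 was at 2.48 and 6.598 CPM, in 18 and 28 barcodes. CER1 was at 0.534 and 5.01 CPM, in 6 and 22 barcodes, so most of its UMIs came from library 2. Shares and intervals here cover counting error only.

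**Figure D1:**
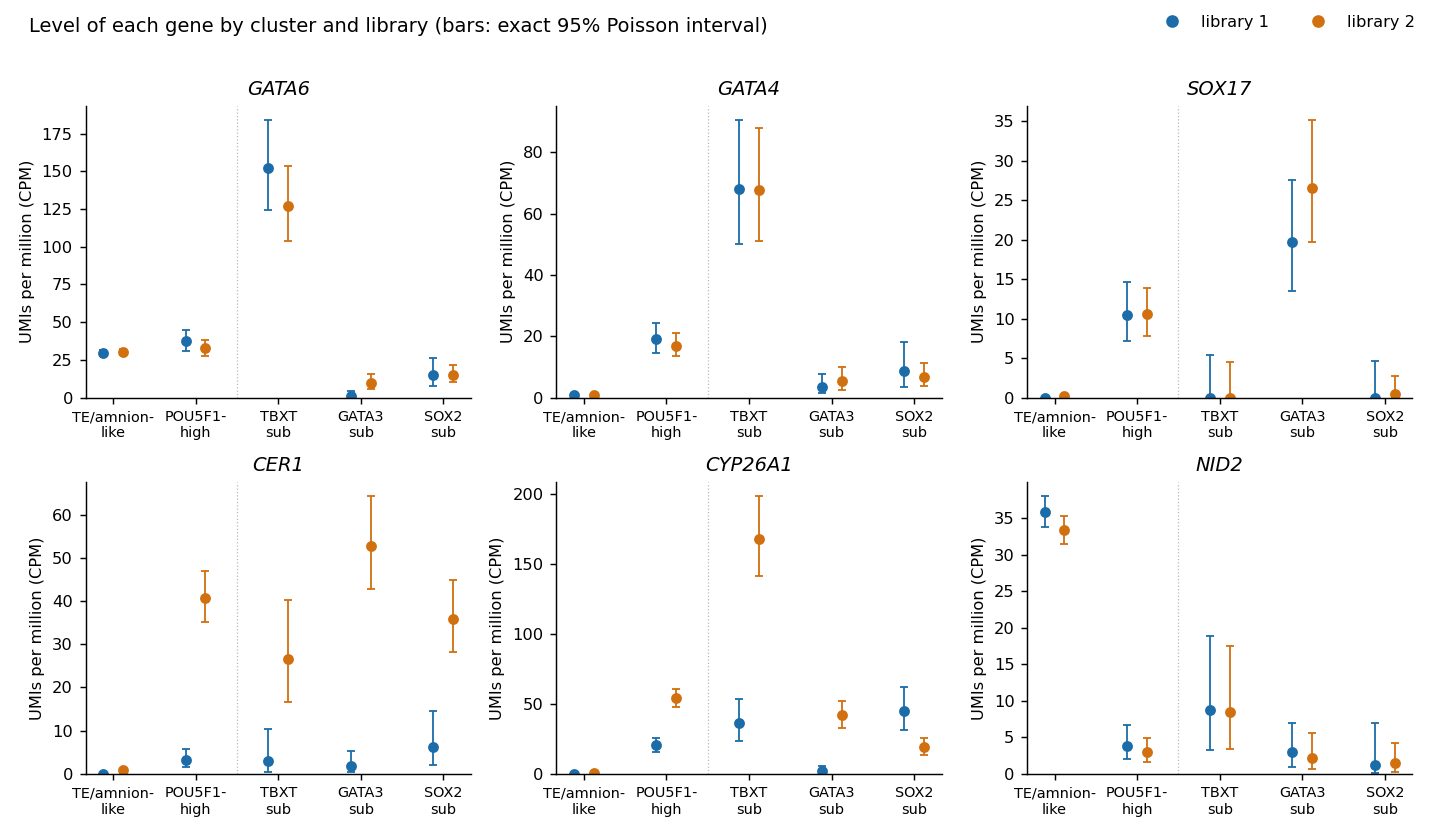
CPM of each gene in the trophectoderm/amnion-like (TE/amnion-like) class, the POU5F1-high cluster and its 3 sub-clusters, with 1 point per library and exact 95% Poisson intervals. GATA6 and GATA4 are highest in the TBXT sub-cluster, SOX17 in the GATA3 sub-cluster and NID2 in TE/amnion-like cells, while CER1 and CYP26A1 differ between the libraries.

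GATA4, SOX17, CER1 and CYP26A1 were concentrated in the small POU5F1-high cluster, and GATA6 and NID2 were not. The cluster made up 5.33% of barcodes. Its cells had a median of 1.84 times the median depth of their library, so its share of all UMIs is larger than that. It held 94.3% of the SOX17 UMIs, 84.6% of those of CER1 (50% of 20 UMIs in library 1 and 87.7% of 220 in library 2), 83.3% of those of CYP26A1 and 72.5% of those of GATA4, but 11.5% of those of GATA6 and 1.02% of those of NID2. Few barcodes carried most of the rarer transcripts: the 3 richest barcodes held 73.9% of the 88 SOX17 UMIs, 40.4% of the 240 CER1 UMIs and 36.0% of the 383 CYP26A1 UMIs, against 4.07% of the 2381 GATA6 UMIs and 1.53% of the 2553 NID2 UMIs.

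Levels were compared between trophectoderm/amnion-like cells and the POU5F1-high cluster, on UMIs that had not been used to build the clusters. GATA4, SOX17 and CYP26A1 were lower in trophectoderm/amnion-like cells and NID2 was higher, while GATA6 did not pass the test. Of the 5 members tested 4 were called, where 46.5% of all 13098 genes tested were called, so this share is read against a background in which almost as many genes were called as not. Lower were 3 members, where 24% of genes tested were lower. These 3 passed the filter on low counts through their levels in the POU5F1-high cluster. NID2 passed it through other cells, trophectoderm/amnion-like ones among them. The direction of all 4 was thus largely fixed by the filter, and these shares are not read as support. The libraries served as replicates in edgeR's quasi-likelihood test, with p-values adjusted over all genes tested.

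GATA4 stood at 0.323 and 0.751 CPM in trophectoderm/amnion-like cells of libraries 1 and 2, against 17.05 and 18.2 CPM in the POU5F1-high cluster. The groups did not overlap and the log2 fold change was -4.88 (SE 0.47, edgeR adjusted p = 6.51e-10). SOX17 had 0 and 0.231 CPM in trophectoderm/amnion-like cells, against 11.998 and 11.4 CPM in the POU5F1-high cluster, a log2 fold change of -6.20 (SE 0.65, edgeR adjusted p = 5.20e-09). That fold rests on 4 UMIs against 46. From all UMIs, 2 barcodes held all 33 SOX17 UMIs of library 1, and 1 barcode held 32 of the 55 of library 2. With DESeq2's Wald test as an alternative, the log2 fold change was -7.10, with a wider SE of 2.66 (DESeq2 Wald adjusted p = 0.0251). Both trophectoderm/amnion-like barcodes with a SOX17 UMI belong to the 7 barcodes with SOX17, CER1 and CYP26A1 described below, and without those 7 barcodes SOX17 was too rare to be tested, as it was in both alternatives that rebuilt the clusters. CYP26A1 had 0.259 and 0.867 CPM in trophectoderm/amnion-like cells, against 20.2 and 53.7 CPM in the POU5F1-high cluster. Its log2 fold change was -5.89 (SE 0.41, edgeR adjusted p = 6.00e-13), far beyond the difference between the libraries.

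NID2 stood at 35.1 and 33.4 CPM in trophectoderm/amnion-like cells, against 3.16 and 3.38 CPM in the POU5F1-high cluster. It was the 1 member called higher in trophectoderm/amnion-like cells, where 22.6% of genes tested were higher, with a log2 fold change of 3.43 (SE 0.33, edgeR adjusted p = 2.39e-10). GATA6 had 28.3 and 29.6 CPM in trophectoderm/amnion-like cells, against 36.6 and 32.1 CPM in the POU5F1-high cluster. The log2 fold change was -0.17 (SE 0.21, edgeR adjusted p = 0.542), and the nearly equal means hide a wide spread inside the POU5F1-high cluster. CER1 did not pass the filter on low counts and was not tested. It had 0.0646 and 0.867 CPM in trophectoderm/amnion-like cells, against 2.53 and 44.4 CPM in the POU5F1-high cluster, from 16 UMIs against 109. Without the filter it was called at -5.35 (edgeR adjusted p = 2.82e-23).

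Inside the POU5F1-high cluster GATA6 and GATA4 were highest in the TBXT sub-cluster and SOX17 in the GATA3 sub-cluster. GATA6, from all UMIs, stood at 152 and 127 CPM in the TBXT sub-cluster, 1.19 and 9.78 CPM in the GATA3 sub-cluster and 15.01 and 15.001 CPM in the SOX2 sub-cluster. GATA4 followed the same order at its top, with 68.1 and 67.7 CPM in the TBXT sub-cluster, 3.58 and 5.43 CPM in the GATA3 sub-cluster and 8.76 and 6.77 CPM in the SOX2 sub-cluster, and the counting intervals of the GATA3 and SOX2 sub-clusters overlap. In library 1 a single barcode held all 12 GATA6 UMIs of the SOX2 sub-cluster, and a single barcode all 7 of its GATA4 UMIs. SOX17 had 0 UMIs in the TBXT sub-cluster, where GATA6 and GATA4 peaked, which allows up to 4.35 and 3.63 CPM, 19.7 and 26.6 CPM in the GATA3 sub-cluster and 0 and 0.484 CPM in the SOX2 sub-cluster. The SOX17 barcodes of the GATA3 sub-cluster held little GATA3 themselves, 2 and 4 UMIs in library 1 and 0 or 1 in library 2. Of all 39 cells of that sub-cluster, 29 had a GATA3 UMI. CER1 stood at 2.90 and 26.6 CPM in the TBXT sub-cluster, 1.79 and 52.7 CPM in the GATA3 sub-cluster and 6.25 and 35.8 CPM in the SOX2 sub-cluster. CYP26A1 stood at 36.2 and 168 CPM in the TBXT sub-cluster, 1.79 and 41.8 CPM in the GATA3 sub-cluster and 45.0 and 18.9 CPM in the SOX2 sub-cluster. For CER1 and CYP26A1 the spread between the libraries was as wide as that between sub-clusters, so no order is read. NID2 stayed at 8.69 CPM or less in all 3.

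The TBXT sub-cluster was then compared with the SOX2 sub-cluster, again on UMIs not used for clustering. GATA6 and GATA4 were higher in the TBXT sub-cluster, 2 of 6 members tested, where 6.72% of 11182 genes tested were called and 3.43% were called higher and 3.29% lower. GATA6 stood at 145 and 138 CPM in the TBXT sub-cluster, against 19.98 and 9.69 CPM in the SOX2 sub-cluster, a log2 fold change of 3.43 (SE 0.45, edgeR adjusted p = 7.43e-06). GATA4 stood at 61.0 and 70.1 CPM in the TBXT sub-cluster, against 7.49 and 5.81 CPM in the SOX2 sub-cluster, a log2 fold change of 3.44 (SE 0.64, edgeR adjusted p = 8.19e-04). With 50 UMIs against 9, GATA4 could hardly have been called lower. With called doublets kept and clusters rebuilt, GATA4 was not called (log2 fold change 1.63, edgeR adjusted p = 0.143).

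CYP26A1 was not called in this comparison, at a log2 fold change of 1.77 (SE 0.63, edgeR adjusted p = 0.104), and its libraries disagreed, with -0.06 in library 1 and 2.98 in library 2. It was called without the filter on low counts (edgeR adjusted p = 7.98e-04). NID2, at 1.60, rested on 5 UMIs against 3 and was called only when all UMIs were used (2.58, edgeR adjusted p = 0.0196). CER1, at -0.38, was not called, and SOX17 had 0 UMIs against 1. These sub-clusters held between 13 and 44 cells a library, which limits what the test can show.

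**Figure D2:**
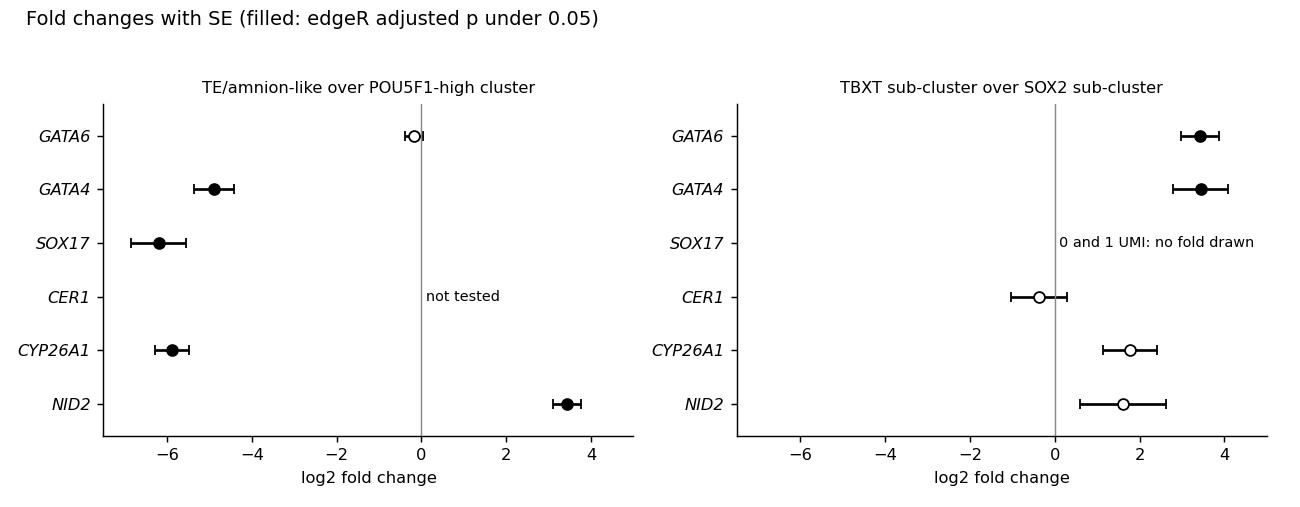
Log2 fold changes with their SE for TE/amnion-like over POU5F1-high cells (left) and for the TBXT over the SOX2 sub-cluster (right), with filled points for an edgeR adjusted p under 0.05. GATA4, SOX17 and CYP26A1 lie left of 0 and NID2 right of it in the first comparison, and GATA6 and GATA4 lie near 3.4 in the second.

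Single barcodes with several of the genes existed, but they were few and of several kinds. At least 3 of the 6 genes had a UMI in 19 barcodes of library 1 (2.03%, exact 95% interval 1.23 to 3.15) and 23 of library 2 (1.51%, 0.962 to 2.26). At least 4 were found in 3 and 10 barcodes, 5 in 1 and 4, and all 6 in none of 2456, which allows a share of up to 0.122%. Deeper barcodes have more chance to show a gene. After each barcode was thinned to 5000 UMIs, which leaves out shallower ones, at least 3 genes were found in 1 of 827 and 8 of 1138 barcodes.

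In the POU5F1-high cluster 9 of 48 cells of library 1 (18.8%, 8.95 to 32.6) and 15 of 83 of library 2 (18.1%, 10.5 to 28.0) held at least 3 of the genes. In trophectoderm/amnion-like cells this was 9 of 720 (1.25%, 0.573 to 2.36) and 8 of 918 (0.871%, 0.377 to 1.71), at median depths of 37270 and 33426 UMIs against 55985 and 49106 in the POU5F1-high cluster. After thinning, 0 of 700 and 0 of 896 trophectoderm/amnion-like cells did, against 1 of 46 and 8 of 82 cells of the POU5F1-high cluster. By sub-cluster, 7 of 13 and 7 of 20 TBXT cells, 1 of 20 and 5 of 19 GATA3 cells and 1 of 15 and 3 of 44 SOX2 cells held at least 3. In library 2 the 5 GATA3 cells are all barcodes with SOX17, CER1 and CYP26A1, described below. All 5 are among the 8 found after thinning, and whether they are separate cells was not tested. The remaining barcode with at least 3 genes, of library 1, was called a doublet: it had 108740 UMIs, 5 of the genes, and both MESP1 (39 UMIs) and GABRP (18 UMIs), a marker of amnion.

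**Figure D3:**
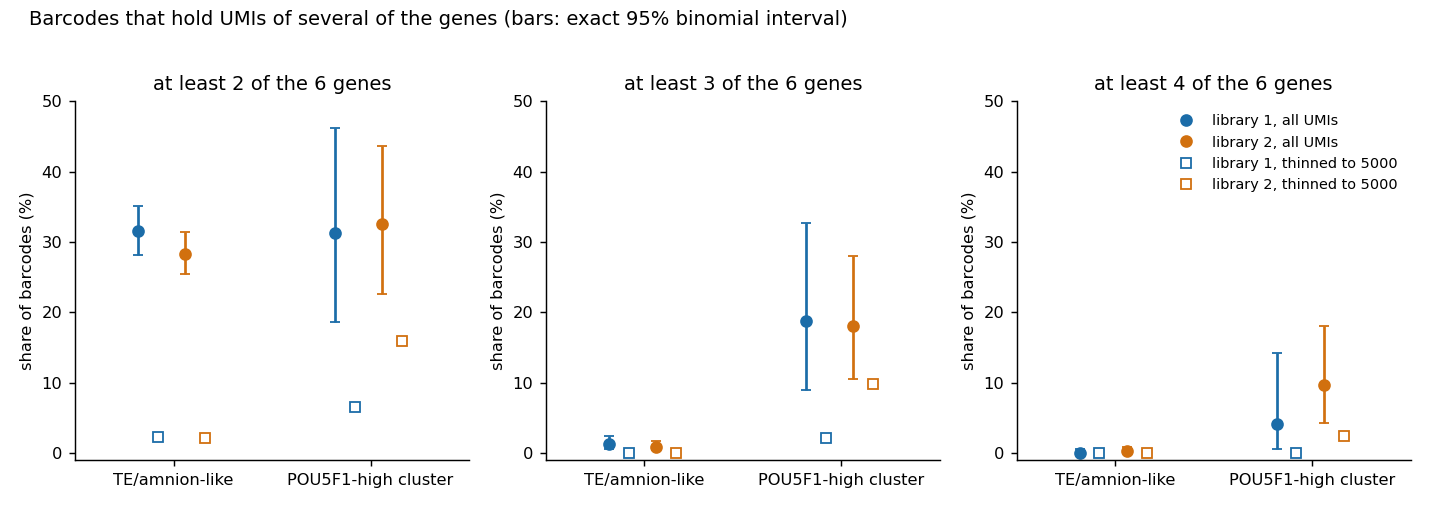
Share of barcodes with UMIs of at least 2, 3 or 4 of the 6 genes in TE/amnion-like cells and in the POU5F1-high cluster, per library, from all UMIs (circles, with exact 95% binomial intervals) and after thinning to 5000 UMIs (squares). At least 2 genes were found in 31.5% and 28.3% of TE/amnion-like and 31.3% and 32.5% of POU5F1-high cells from all UMIs, and in 2.29% and 2.12% against 6.52% and 15.9% after thinning. At least 3 were found in 0.871% to 1.25% of TE/amnion-like and 18.1% to 18.8% of POU5F1-high cells.

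The common pair was GATA6 with NID2, in 238 barcodes of library 1 and 274 of library 2, of which 221 and 255 were trophectoderm/amnion-like. There, 45.7% and 47.2% of cells had a GATA6 UMI and 59.6% and 52.6% a NID2 UMI, with 11.7% and 13.7%, and 13.9% and 14.8%, after thinning. In barcodes under 1000 genes GATA6 stood at 28.7 and 17.4 CPM and NID2 at 16.9 and 21.7 CPM. The part of free RNA in the shares of cells was not tested. Of the trophectoderm/amnion-like barcodes with 3 or more genes, all 9 of library 1 and all but 2 of library 2 had GATA6 and NID2 with 1 to 3 UMIs of a single further gene. The other 2 had GATA6 and NID2 with SOX17, CER1 and CYP26A1.

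**Figure D4:**
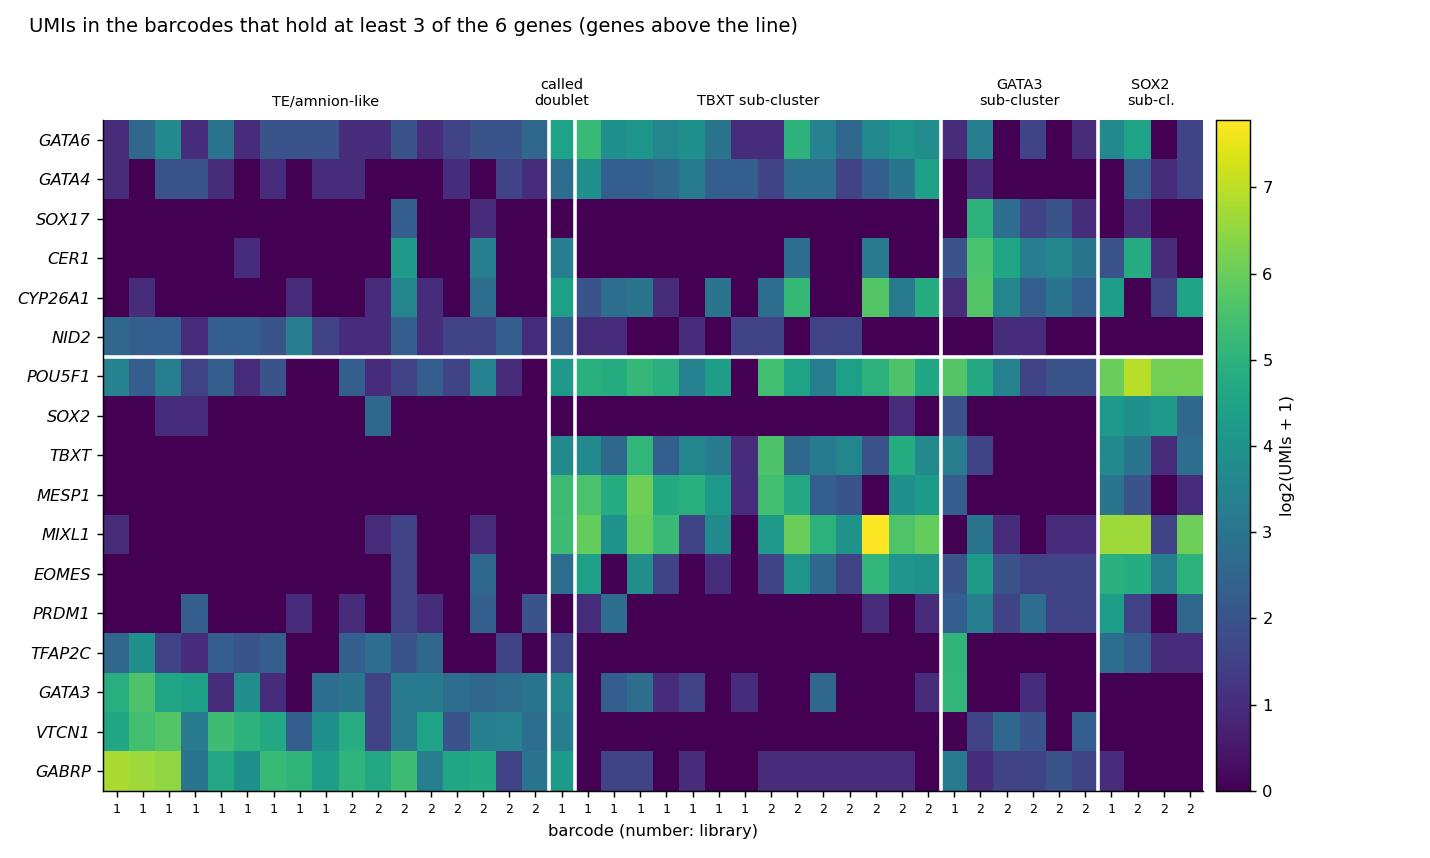
UMIs, as log2(UMIs + 1), of the 6 genes and 11 genes of other cell types in the 42 barcodes that hold at least 3 of the 6, grouped by cluster. TBXT sub-cluster barcodes hold GATA6 and GATA4 beside MESP1 or MIXL1 and have no SOX17, and the barcodes with SOX17, CER1 and CYP26A1 stand apart in the GATA3 sub-cluster and in 2 TE/amnion-like barcodes.

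The first kind of barcode carried GATA6, GATA4 and CYP26A1, mostly without SOX17. These 3 met in 6 barcodes of library 1 and 7 of library 2, of which 5 and 7 lay in the POU5F1-high cluster and 1 was the called doublet. SOX17 had UMIs in 1 of them, described below with the second kind. The levels of MESP1, RSPO3, TBXT and LHX1 are given as values of genes picked after they had been seen. RSPO3 and LHX1 also belong to the wider hypoblast list. MESP1, a factor of cardiac mesoderm, stood at 477 and 243 CPM in these barcodes, against 45.5 and 18.04 CPM in the other POU5F1-high cells. The library 1 levels of these barcodes include the called doublet, which had 39 MESP1 UMIs. The set was mixed: in library 2 its barcodes held between 0 and 42 MESP1 UMIs each. RSPO3, a WNT agonist, stood at 469 and 197 CPM, against 51.6 and 49.0 CPM, and TBXT at 162 and 250 CPM, against 49.4 and 53.9 CPM. LHX1, a factor of anterior streak and mesoderm, stood at 41.0 and 245 CPM, against 16.4 and 11.6 CPM. A single barcode of library 2 held 58 of its UMIs. FOXA2 had UMIs in 2 of the 7 barcodes of library 2, 6 UMIs in all. These 2 lay in the GATA3 and SOX2 sub-clusters and had 0 and 1 MESP1 UMIs. The former is the barcode with SOX17, counted again below. In the TBXT sub-cluster FOXA2 had 0 UMIs. The barcode of this kind with most GATA6 had 37 GATA6, 14 GATA4 and 3 CYP26A1 UMIs in library 1, with 46 MESP1 UMIs.

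GATA6, GATA4 and SOX17 together, the set of 3 factors shared by hypoblast and endoderm, were found in 2 of 1519 barcodes of library 2 (0.132%, 0.0159 to 0.475). In library 1 they were found in 0 of 937, for which the limit is 0.320%. One, in the SOX2 sub-cluster, had 22 GATA6, 4 GATA4, 1 SOX17 and 27 CER1 UMIs beside 123 of POU5F1 and 14 of SOX2. The other, in the GATA3 sub-cluster, had 9 GATA6, 1 GATA4, 32 SOX17, 47 CER1 and 51 CYP26A1 UMIs. With at least 2 UMIs of each factor, or after thinning, none remained.

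The second kind of barcode carried SOX17, CER1 and CYP26A1. It was picked out after its values had been seen, so its values are given without a test. It numbered 7 of 1519 in library 2 (0.461%, 0.185 to 0.947) and 0 of 937 in library 1, with the same limit, and lay 5 times in the GATA3 sub-cluster and 2 times in the trophectoderm/amnion-like class. The richest barcode had 32 SOX17, 47 CER1 and 51 CYP26A1 UMIs in 49106. The other 6 had 1 to 6 SOX17, 7 to 23 CER1 and 4 to 11 CYP26A1 UMIs. Summed over the 7, SOX17 stood at 222 CPM, CER1 at 558 CPM and CYP26A1 at 427 CPM. In the other POU5F1-high cells of library 2 these genes stood at 1.30, 20.7 and 38.5 CPM. The 7 barcodes were selected for UMIs of these same genes, so an excess of them was built into this comparison and is not read as a result. SOX17 met CER1 in 8 of the 9 library 2 barcodes that held it, the 7 selected ones among them.

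All 7 barcodes also had UMIs of EOMES, a factor of streak and early endoderm, PRDM1 and KDR, and none had a UMI of SOX2. FOXA2, a defining factor of endoderm, had UMIs in 3 of the 7 (22.7 CPM over the set, against 1.73 CPM in the other POU5F1-high cells). HHEX, a factor of anterior endoderm, had 1 UMI in all. CXCR4 and LEFTY1, also of the wider definitive endoderm list, had 0 UMIs in all 7. Over the 11 endoderm markers, the summed level per barcode ranged between 0 and 124 CPM. In the other POU5F1-high cells of library 2 the median was 0 CPM and the 95th percentile 50.8 CPM. LGR5, a receptor of R-spondins such as RSPO3, stood at 463 CPM, against 7.78 CPM in the other POU5F1-high cells and 18.7 CPM in trophectoderm/amnion-like cells. FGF17, a growth factor, stood at 418 CPM, against 41.3 CPM, and the WNT antagonist DKK4 at 109 CPM, against 4.75 CPM. PRSS2, at 77.2 CPM against 0.432 CPM, has near-identical paralogs, so its counts are uncertain. GATA6 stood at 81.7 CPM, against 30.7 CPM, and GATA4 had 1 UMI.

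Markers of trophectoderm and amnion were also found in these barcodes. Over the 14 markers, the summed level was 1120 CPM in the richest barcode, 1474 to 2032 CPM in the other 4 barcodes of the GATA3 sub-cluster and 2761 and 3463 CPM in the trophectoderm/amnion-like ones, with 6 to 13 markers found. The median was 4534 CPM in the other trophectoderm/amnion-like cells and 656 CPM in the other POU5F1-high cells of library 2. From summed UMIs, the GATA3 sub-cluster of library 2, its 5 barcodes included, stood at 2586 CPM. That value is pooled, so deeper cells weigh more in it, and it is not a level per barcode. How these 5 barcodes stand among the single cells of their own sub-cluster was not tested. IGFBP3 and GABRP had UMIs in all 7, at 427 and 345 CPM over the set, against 16.9 and 11.02 CPM in the other POU5F1-high cells and 660 and 466 CPM in trophectoderm/amnion-like cells. Most GABRP UMIs lay in the 2 trophectoderm/amnion-like barcodes, with 40 and 26, while the 5 barcodes of the GATA3 sub-cluster had 1 to 3 each. The 4 shallower barcodes, of 10855 to 19005 UMIs, had 1.63% to 2.04% mitochondrial UMIs, whereas the richest had 11.2% and the POU5F1-high cells of library 2 a median of 4.91%. SOX17 was 24.6% of the summed UMIs of the 3 genes in the richest barcode and 12.5% over the other 6 together, in which it ranged between 6.25% and 15%. None of the 7 was called a doublet, and their barcode sequences differed pairwise at 8 to 16 bases. Barcodes under 1000 genes held no SOX17 UMI in either library, 1 CER1 UMI in each, and 1 and 2 CYP26A1 UMIs. Whether the 7 barcodes are separate cells or share the RNA of fewer cells was not tested, and the share and its interval above count barcodes, not cells. What part RNA of other cells has in them was not tested either.

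**Figure D5:**
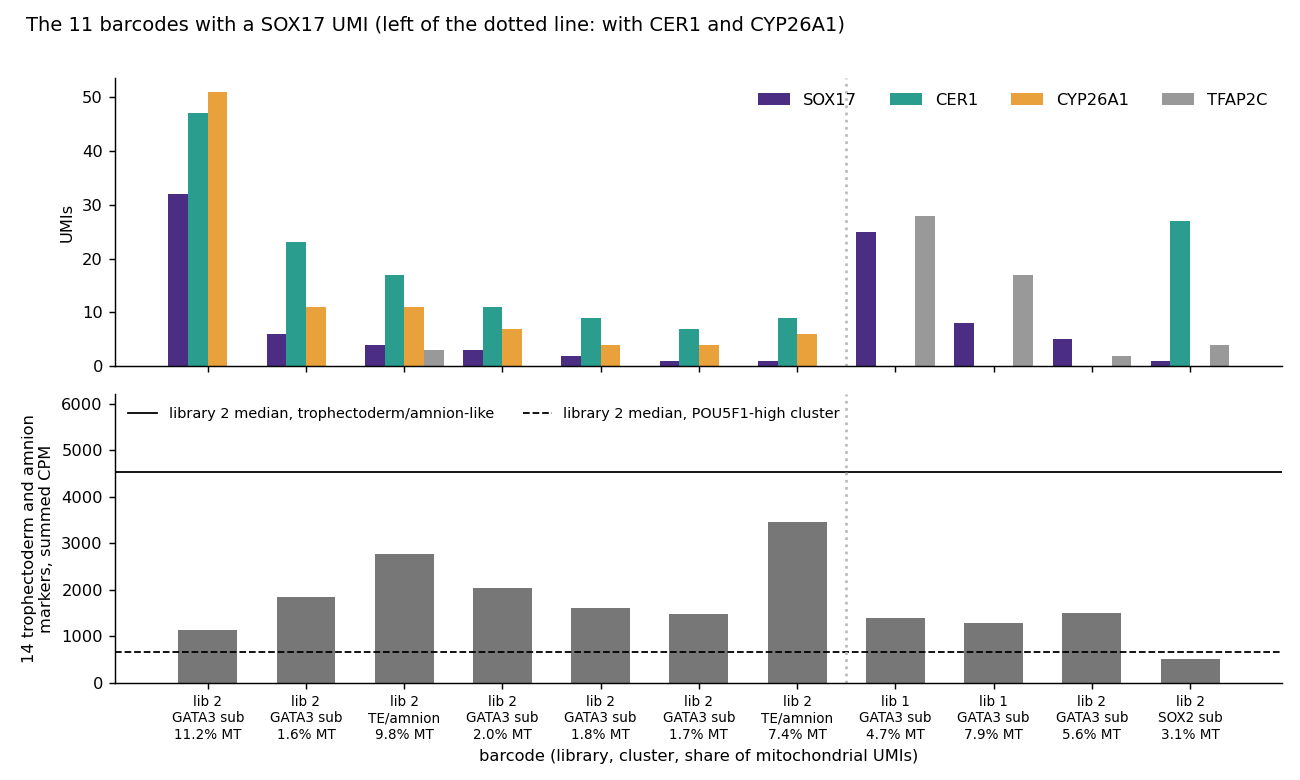
UMIs of SOX17, CER1, CYP26A1 and TFAP2C (top) and summed CPM of 14 trophectoderm and amnion markers (bottom) in each of the 11 barcodes with a SOX17 UMI, with the library 2 medians of TE/amnion-like (solid line) and POU5F1-high cells (dashed line). The 7 barcodes on the left hold CER1 and CYP26A1 and range between 1120 and 3463 CPM of the markers, and both library 1 barcodes hold TFAP2C and neither CER1 nor CYP26A1.

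The third kind was SOX17 without CER1 or CYP26A1. Both SOX17 barcodes of library 1 were of this kind, with 25 and 8 SOX17 UMIs, and both lay in the GATA3 sub-cluster. They held the genes of primordial germ cells in which SOX17 is known to act: 28 and 17 UMIs of TFAP2C, 22 and 6 of PRDM1, 3 and 1 of NANOS3 and 18 and 7 of CXCR4, with 78 and 53 of POU5F1 and none of SOX2. Of the 8 germ cell markers 7 and 5 had a UMI, summing to 1164 and 1030 CPM, against a median of 105 CPM over all POU5F1-high cells of library 1. They held 1 and 4 GATA4 UMIs and none of GATA6, CER1, CYP26A1 or NID2. The 1 such barcode of library 2, with 5 SOX17 UMIs, had 16 UMIs of TBXT, 2 of TFAP2C and none of PRDM1.

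Wider gene lists of the same pathways set the members in context for trophectoderm/amnion-like cells over the POU5F1-high cluster. Counts are read beside the 46.5% of all genes that were called and an all-gene median log2 fold change of -0.004. Of 13 tested genes of a wider hypoblast list 6 were higher and 7 lower, with a median of -1.15. RSPO3 was lower at -5.11, LHX1 at -5.12 and COL4A1, a collagen IV chain, at -2.08. Of 10 definitive endoderm genes none were higher and 7 were lower, with a median of -2.41, led by EOMES at -8.68 and MIXL1 at -6.95. The 7 were EOMES, MIXL1, LHX1, FOXA3, PRDM1, CXCR4 and OTX2, of which EOMES, MIXL1 and LHX1 are also genes of the primitive streak. CXCR4 rested on library 1, at 1.23 CPM in trophectoderm/amnion-like cells against 14.5 CPM in the POU5F1-high cluster, and stood at 1.44 against 1.69 CPM in library 2. In library 1, 25 of its UMIs lay in the 2 barcodes with SOX17 and germ cell genes, and the other POU5F1-high cells held 7.52 CPM.

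Of 17 basement membrane genes 9 were higher and 6 lower. The laminin chain gene LAMB1, at 193 ± 2.79 CPM in trophectoderm/amnion-like cells and 52.4 ± 5.37 CPM in the POU5F1-high cluster (SD, n = 2 each), was higher with NID2, whereas NID1, its closest relative, was lower at 2.22 ± 0.69 CPM and 13.9 ± 1.83 CPM (log2 fold change -2.61). Of 15 retinoic acid genes 6 were higher and 4 lower. The receptor gene RARB stood at 131 ± 0.13 CPM in trophectoderm/amnion-like cells and 11.2 ± 5.64 CPM in the POU5F1-high cluster (log2 fold change 3.71), opposite to CYP26A1. The binding protein gene CRABP1 was lower with CYP26A1, at -3.77.

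Of 14 NODAL, BMP and WNT ligands and antagonists 2 were higher and 10 lower, as CER1 was by its levels, with WNT8A at -8.69, the NODAL co-receptor gene TDGF1 at -8.21 and NODAL at -6.72. Of 12 genes of the GATA and SOX families 5 were higher and 3 lower. SOX2 was lower at -5.00, and SOX15 and SOX7 were higher at 2.90 and 2.41. Of 5 germ cell genes none were higher and 4 were lower, with ALPL at -3.74, PRDM1 at -2.59 and PDPN at -2.32. Of 4 endothelial genes 3 were higher and 1 lower, with FLI1 at 4.45 and KDR, a receptor also expressed in early mesoderm, at -3.00. All these named genes passed edgeR's test and kept their sign under every alternative in which they were tested.

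For the TBXT over the SOX2 sub-cluster, where 6.72% of genes were called and the all-gene median was -0.03, the wider hypoblast list had 6 higher and none lower of 14. RSPO3 stood at 379 ± 80.5 CPM in the TBXT sub-cluster and 2.22 ± 0.40 CPM in the SOX2 sub-cluster (SD, n = 2 each). LHX1 was higher at 5.16 and BMP2, a BMP ligand, at 4.89. Of 5 definitive endoderm genes LHX1 and MIXL1 were higher. The MIXL1 call rested on library 2, at 822 CPM in the TBXT sub-cluster against 228 CPM in the SOX2 sub-cluster, with 319 against 292 CPM in library 1. Of 11 retinoic acid genes 3 were higher and none lower, with ALDH1A2, which makes retinoic acid, at 3.75. Of 15 ligands and antagonists 6 were higher and 4 lower, with WNT5A at 6.13 and DKK1 at 3.63 above 0 and NODAL at -2.91 below it. Of 14 basement membrane genes 1 was higher, SPARC at 0.91, which turned to -0.19 under 1 of the 9 alternatives. Of 10 GATA and SOX genes 1 was called, SOX2, which defined the sub-cluster, and of 5 germ cell genes TFAP2C and PDPN were lower. None of 3 endothelial genes were called.

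Genes most like each member were named by Pearson's r of log2(CPM + 1) over 16 points, 8 clusters in 2 libraries, which share cells' depth and library, so r is descriptive only. The 5 nearest to NID2 were P2RY6 (r = 0.923), PLSCR5, DSP, AMOT and VTCN1, a marker of amnion (r = 0.916). Those of GATA6 were ACOT11 (0.933), BICRAL, PRDM11, PCAT7 and TMEM182 (0.904). For GATA4 they were HPAT5 (0.980), MIR302CHG, SP5, SFRP2 and ENSG00000289205, for SOX17 LINC00698 (0.989), TBXT (0.987), WNT8A, MESP1 and ENSG00000258649. CER1 was nearest to NODAL (0.907), the ligand it antagonises, and then to CYP26A1 (0.866), and CYP26A1 to LRP8 (0.946), with NODAL (0.934) among its 5. The likeness of SOX17 to TBXT and MESP1 is one between clusters. SOX17 had 0 UMIs in the TBXT sub-cluster, where TBXT stood at 254 ± 68.0 CPM (SD, n = 2).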

How the data were processed

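For each library the authors deposited a gene-by-barcode table of UMI counts that were not normalized. Cell Ranger 9.0.0 and GRCh38 are named in the submitters' processing notes; other steps are not given in the sources used here. Every barcode in the tables has at least 200 detected genes. Totals per library stand in the report.

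The members and gene lists were chosen with earlier results of these data known. Barcodes were kept where 1000 or more genes were detected and no more than 20% of UMIs were mitochondrial. Scrublet (in scanpy 1.11.5, expected rate 0.8% per 1000 barcodes) called 4 and 3 doublets, which were left out of clusters but not of counts per barcode.

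UMIs were split at random between a part A and a part B. The first gave the clusters (2000 variable genes without members or list genes, 30 principal components, 15 neighbours, Leiden resolution 0.5, igraph 0.11.9, no batch correction). Clusters were named from fixed marker lists. A cluster under 1/3 of its sample's depth without a marker among its leading genes stayed unnamed. The planned epiblast-like class is represented by the POU5F1-high cluster: its streak score was 9.56 and its pluripotency score 9.25, and the decision to leave it unnamed was made after seeing them. That scoring rule also followed a look at the data.

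Part B was summed per library and cluster, for clusters with at least 20 cells (sub-clusters 10) in both libraries. Sums of the 25556 genes in both tables were tested with edgeR 4.0.16 (quasi-likelihood, TMM, filterByExpr, library as a block because the clusters come from the same libraries, Benjamini-Hochberg, threshold 0.05). The SE is the size of the log2 fold change divided by the square root of F. Its script was first tested on simulated counts. DESeq2 1.42.0 was an alternative. Thinning drew 5000 UMIs per barcode. Intervals are exact (Clopper-Pearson, Poisson) at 95%, and a count of 0 allows 3 counts.

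Named genes are the members, up to 3 called genes per list with the largest fold at 10 CPM or more in the higher cluster, and the 5 genes nearest to each member with a mean of at least 5 CPM. Genes of single barcodes beyond the lists (LGR5, PRSS2) were chosen after their values were seen. FOXA2 was analysed in library 2 alone. A few of the named genes are left out of the text. Alternatives are given at the end.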

Additional observations from a re-analysis of the deposited data

Results flagged for a closer look

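GATA6 and NID2 had UMIs in barcodes outside the description, those under 1000 genes or over 20% mitochondrial UMIs, above the 3 UMIs that a count of 0 allows. GATA6 had 70 UMIs there over both libraries, and NID2 had 45. In barcodes over 20% mitochondrial UMIs the levels in the 2 libraries were 33.01 and 37.1 CPM for GATA6 and 11.6 and 22.975 CPM for NID2. Whether these are shallow cells or free RNA was not tested.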

How the results depend on the processing

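Of the members in trophectoderm/amnion-like over POU5F1-high cells, between 3 and 5 were called under all 9 alternatives, and every member tested kept its sign. Without the 7 barcodes with SOX17, CER1 and CYP26A1, an alternative chosen after seeing the data, 3 of 4 tested were called. For the TBXT over the SOX2 sub-cluster 2 members were called, 1 with doublets kept and clusters rebuilt, and 3 without the filter on low counts and with all UMIs; CER1, not called in any of these fits, stood at 0.76 with another random split instead of -0.38, and GATA6 at 11.5 instead of 3.43. The fit with no replicate block called 4 and 2 members, as the fits with the block did, so the block changed no call of a member. Leaving out a library leaves no test, so single-library folds are values only. The cause of these changes was not tested.

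Counts of barcodes depend on depth and on how many UMIs count. Against 42 barcodes with at least 3 genes, 23 had at least 2 UMIs of each, and thinning to 10000, 5000 and 2000 UMIs gave 13, 9 and 1. The range without a library was 19 to 23. Against 2 barcodes with GATA6, GATA4 and SOX17, the count was 0 with at least 2 UMIs of each and after all 3 thinnings, 1 at up to 10% mitochondrial UMIs, and 0 to 2 without a library. The 7 barcodes with SOX17, CER1 and CYP26A1 became 5 with at least 2 UMIs of each, 6 at up to 10% mitochondrial UMIs, and 6, 4 and 0 after thinning to 10000, 5000 and 2000 UMIs; without library 2 none remain. Summed member levels (71.5 CPM), mostly GATA6 and NID2, moved by less than their spread between libraries. GATA4 moved by more than its own small spread (SD 0.0065 CPM). It went from 2.37 CPM to 2.33 CPM with all deposited barcodes and to 1.86 CPM as a mean of per-barcode CPM.

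Of all genes, the median log2 fold change of the first comparison moved to 0.21 without the filter on low counts and to -0.14, -0.11 and -0.13 with another split, with doublets kept and with barcodes of at least 5000 UMIs, and 2268 genes were higher and 3818 lower with the other split, against 2954 and 3142.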
